A study of Homo sapiens with 12 samples.

Results

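The clustered protocadherin interval on the long arm of chromosome 5, GRCh37 chr5:140155000-140903000, held few ATAC-seq peaks in G401 cells, and nearly all of them lay near its far end. Members were the peaks of the 12 libraries that overlapped this interval, merged across libraries where they shared at least 1 bp. This gave 26 regions made from 98 peaks, of 187088 merged regions in the series and 10191 on chromosome 5. The interval is 748 kb long, and the 26 regions covered 4.488 kb of it.

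Clustered protocadherins are cell adhesion molecules of the cadherin family, best known from neurons, where each cell expresses its own combination of them. In the alpha and gamma clusters each variable exon has a promoter of its own and is spliced to constant exons shared by the cluster, whereas each beta gene is a single exon with its own promoter. The choice of promoter involves CTCF and cohesin, which bring promoters close to distant enhancers, and DNA methylation. The list holds 53 genes, 15 in the alpha, 16 in the beta and 22 in the gamma cluster, and RefSeq names all of them. In RefSeq order along the chromosome, ZMAT2 comes before PCDHA1, the alpha genes are followed by the beta and then the gamma genes, SLC25A2 and TAF7 lie between the beta and gamma genes, and DIAPH1 follows PCDHGC5.

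ATAC-seq uses a transposase to insert sequencing adapters into open DNA, and here peaks were called from short, nucleosome-free fragments. G401 is an established rhabdoid tumour line that lacks both copies of SMARCB1, a core component of SWI/SNF chromatin remodellers. Every library came from SMARCB1(-/-) G401 cells given dox for 24 h, which induced GFP as the control or SMARCB1, together with the vehicle DMSO or with dBRD9-A, a degrader of the SWI/SNF subunit BRD9. The 4 groups, GFP with DMSO, GFP with dBRD9-A, SMARCB1 with DMSO and SMARCB1 with dBRD9-A, had 3 libraries each. All groups therefore share the SMARCB1 deletion, the line and the exposure to dox. Doses, the promoter of the induced gene and whether replicates were separate cultures are not given in the sources used here, so the p-values below measure the spread between these libraries, which may be technical.

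RefSeq promoter sequences, from 250 bases before to 50 bases after a gene's start, were at hand for 47 of the 53 genes, as 52 sequences in GRCh38.p14. They are shown because promoter choice is what sets these genes apart, and they cannot be placed on the peaks, whose coordinates are in GRCh37. No peak was assigned to a promoter, exon, intron or gene. The median GC content of the protocadherin promoters was 40.7%, against 58.7% over all 35116 promoter sequences, and the median number of CpG dinucleotides was 7.5 against 14. Alpha, beta and gamma promoters had median GC contents of 37.3%, 40.8% and 47.3%. The 3 sequences below, on the plus strand, show this range. In the first, PCDHB9 at GRCh38.p14 chr5:141186911-141187210, capitals mark the 1 match in the list to a short form of the CTCF motif (CCA, any 2 bases, AG, any 2 bases, GGC), at positions -82 to -71 from the start. In the others capitals mark CG. They are PCDHAC1 at chr5:140926049-140926348, with the most CpG of the list (27, GC content 66%), and PCDHGA4 at chr5:141354771-141355070, with the fewest (2, GC content 32.3%).
PCDHB9: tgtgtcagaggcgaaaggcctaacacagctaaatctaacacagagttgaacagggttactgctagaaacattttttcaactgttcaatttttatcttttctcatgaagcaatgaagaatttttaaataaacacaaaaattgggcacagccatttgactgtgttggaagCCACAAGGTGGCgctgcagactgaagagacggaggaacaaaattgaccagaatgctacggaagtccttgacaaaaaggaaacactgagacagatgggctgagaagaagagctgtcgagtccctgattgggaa
PCDHAC1: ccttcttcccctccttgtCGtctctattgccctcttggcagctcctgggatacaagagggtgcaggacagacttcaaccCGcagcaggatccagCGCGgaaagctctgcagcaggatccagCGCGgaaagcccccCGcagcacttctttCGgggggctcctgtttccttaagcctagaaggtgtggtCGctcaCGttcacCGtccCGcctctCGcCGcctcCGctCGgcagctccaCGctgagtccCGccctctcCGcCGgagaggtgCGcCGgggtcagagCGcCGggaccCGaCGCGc
PCDHGA4: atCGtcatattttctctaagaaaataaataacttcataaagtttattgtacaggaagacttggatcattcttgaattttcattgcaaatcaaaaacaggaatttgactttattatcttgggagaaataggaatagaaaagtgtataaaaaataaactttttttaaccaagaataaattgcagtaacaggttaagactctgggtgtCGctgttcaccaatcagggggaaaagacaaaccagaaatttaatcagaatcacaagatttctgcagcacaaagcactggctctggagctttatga
On both strands, the short CTCF form matched 1 of the 52 protocadherin promoters (1.92%) and 2.41% of all promoters of this length. TGANTCA, the AP-1 motif, matched 1 (1.92%) against 7.71%, and GGAATG, the TEAD motif, matched 9 (17.3%) against 14%. Matches of different patterns were counted independently of any overlap, and a match is a description of the letters. A fixed pattern passes over sites that differ from it in a required letter, so lack of a match does not show that a site is absent.

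The peak lists held between 33428 and 50089 peaks in GFP libraries and between 71169 and 96572 in SMARCB1 libraries. Depth was read from the background pileup, meaning the fragments that chance alone would stack on a base, which was 0.0517 ± 0.0171 in GFP and 0.0827 ± 0.0217 in SMARCB1 libraries (SD, n = 6 each). SMARCB1 libraries were therefore deeper on average as well as longer, and absence from a list does not show closed chromatin. The lists hold no expression values, so the induction of SMARCB1 and the loss of BRD9 were not checked against them.

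Along the interval, accessibility was concentrated towards its end. From position 140114199, before the interval, to 140561887 no library had a peak, a stretch of 447.7 kb. It was the 27th longest of 10190 stretches without peaks on chromosome 5, so 0.265% of them were as long or longer. It ended at a region of 1 GFP dBRD9-A library with a summit of 2 fragments and a fold of 2.78. The fold is the authors' value, the summit pileup over the local background with 1 added to each, and is used here only to describe peaks. A further 137.855 kb without peaks followed. The first region found in more than 1 library began 544.826 kb into the interval, after 72.8% of its length. Counting only peaks at or above a −log10 q of 5, the stretch without peaks was 585.6 kb. How reads that match several of these similar genes were treated is not given in the sources used here, and the part of read mapping in this stretch was not tested.

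**Figure D1:**
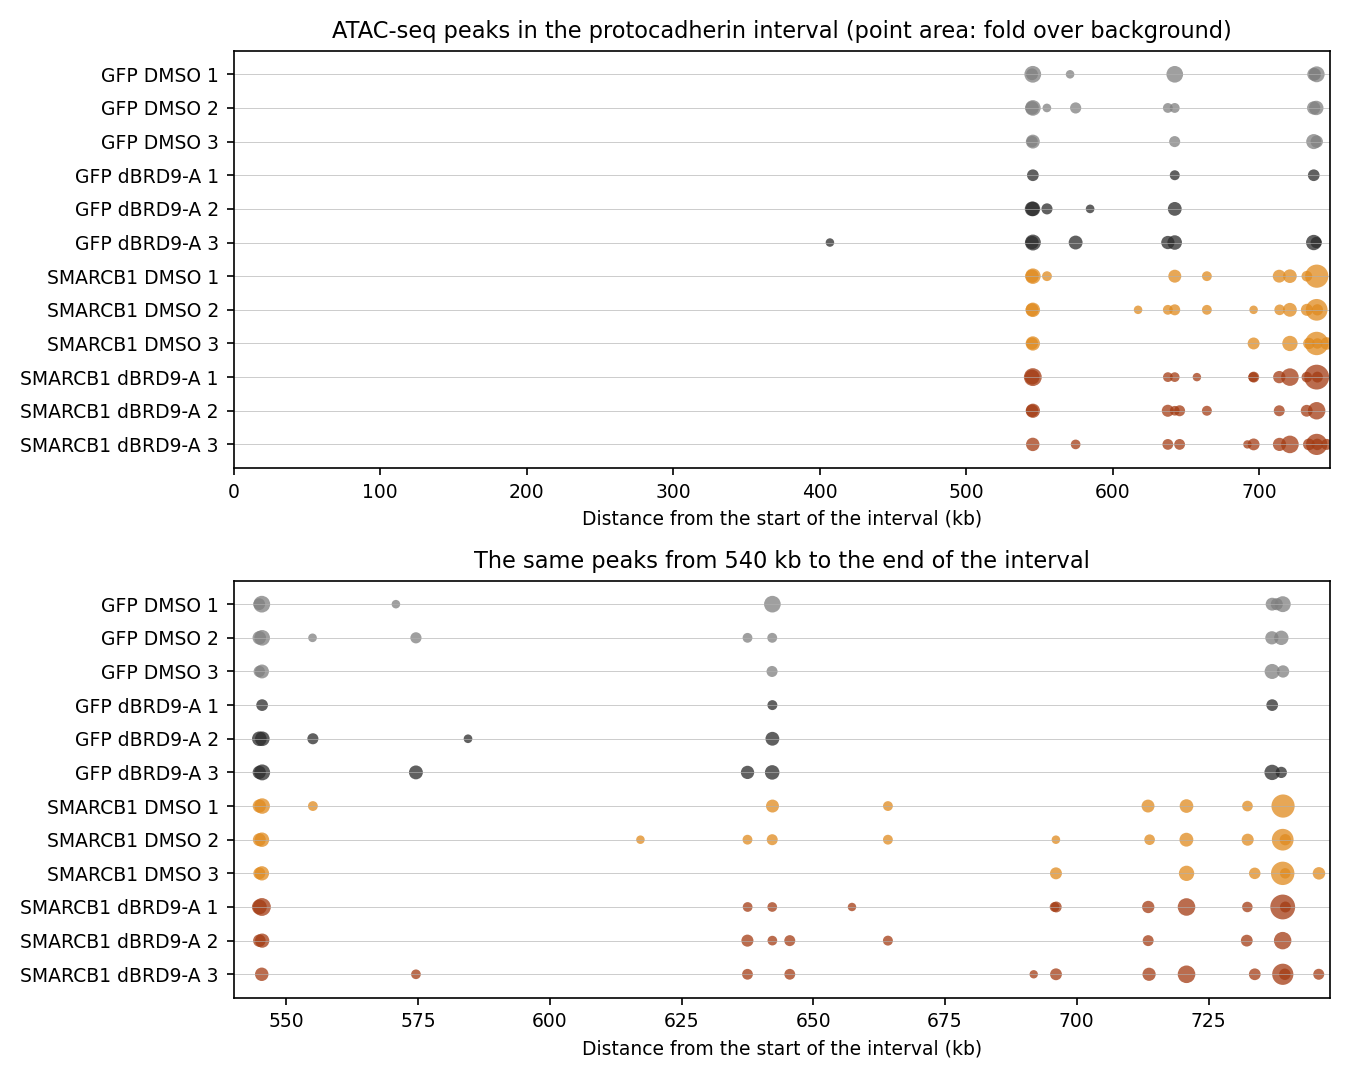
Peaks of the 12 libraries (rows) by distance in kb from the start of the interval (horizontal axes), over the whole interval above and over its occupied end below. Each point is a peak, its area is the authors' fold over background, and its colour gives the group. Only 1 peak lies before 544.826 kb, and the last 50 kb hold 38 of the 98 peaks.

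The interval was also sparse beside its surroundings. GFP libraries had 8.0 ± 2.7 peaks per Mb in the interval and 10.1 ± 1.84 over chromosome 5, and SMARCB1 libraries 13.8 ± 2.49 and 25.1 ± 2.91 (SD, n = 6 each). The ratio of the densities was below 1 in 11 of 12 libraries, with a range of 0.469 to 1.16 in GFP and 0.423 to 0.609 in SMARCB1 libraries. In all 12 libraries the interval held fewer peaks than the window of equal length on either side, where the mean numbers were 32.2 and 29.3 in GFP and 51.5 and 51.2 in SMARCB1 libraries. These windows hold other genes and were chosen for their position alone.

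Most regions were rare across libraries. Of the 26, 9 had a peak in 1 library (5 in a SMARCB1 and 4 in a GFP library), and 6 of these 9 had a summit of 2 fragments, the lowest pileup called in any list. A further 16 had a peak in 2 to 10 libraries and could be tested, none in 11, and 1 in all 12 (3.85%, against 9.68% of all regions). By induction, 14 regions (53.8%) had peaks only in SMARCB1 libraries, 5 (19.2%) only in GFP libraries and 7 (26.9%) in both. Over the whole series these shares were 62.3%, 11.5% and 26.2%. The median region was 116 bp wide, against 126 bp over all regions.

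Peaks in the interval were more numerous in SMARCB1 than in GFP libraries, and the number did not differ between DMSO and dBRD9-A in the mean. GFP DMSO libraries 1, 2 and 3 had 7, 8 and 5 peaks, and GFP dBRD9-A libraries 3, 5 and 8. SMARCB1 DMSO libraries had 9, 12 and 8, and SMARCB1 dBRD9-A libraries 12, 9 and 12. The inductions met at 8 peaks, the highest number in GFP and the lowest in SMARCB1 libraries. The means were 6 ± 2 and 10.3 ± 1.86 (SD, n = 6 each), a difference of 4.33 peaks and a ratio of 1.72, beside 2.18 for the whole lists and 1.60 and 1.74 for the windows on either side. As a share of its list, the interval took 0.0153% ± 0.00443 of the peaks in GFP and 0.0122% ± 0.00155 in SMARCB1 libraries (SD, n = 6 each). The difference of 4.33 fell to 1.33 with −log10 q of at least 5 and to 0.667 with lists thinned to equal depth, and turned to −2 with lists of equal length. Here and below, thinning was a single random draw, and whether weak peaks stay under other draws was not tested. No test was made of this sum over chosen members.

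The difference was uneven along the interval. In the last 50 kb, GFP DMSO libraries had 3, 2 and 2 peaks, GFP dBRD9-A libraries 1, 0 and 2, SMARCB1 DMSO libraries 4, 5 and 5, and SMARCB1 dBRD9-A libraries 5, 3 and 6. The means were 1.67 ± 1.03 in GFP and 4.67 ± 1.03 in SMARCB1 libraries (SD, n = 6 each), a ratio of 2.80, and the inductions met at 3. Before the last 50 kb the means were 4.33 ± 1.63 and 5.67 ± 1.51, a ratio of 1.31, and the inductions overlapped. Of the 15 regions of the last 100 kb, 12 had peaks only in SMARCB1 libraries, 2 only in GFP libraries and 1 in both. Of the 11 regions before that, 2 were found only in SMARCB1 libraries, 3 only in GFP libraries and 6 in both. Over the whole series 62.3% of regions had peaks only in SMARCB1 libraries, and on chromosome 5 66.7%. Among the 12, those at 657.3, 691.8, 695.75 and 732.2 kb had a peak in 1 library each. Some of the 12 were close neighbours: the 732.3 kb region began 0.029 kb after the 732.2 kb region, and the 696.0 kb region 0.177 kb after the 695.75 kb region. With windows of 100 bp to each side of summits, the 732.2 and 732.3 kb regions fell in a region with a peak in 4 SMARCB1 and 0 GFP libraries (exact permutation p 0.08). Parts of the interval were not recomputed at equal depth or with lists of equal length.

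**Figure D2:**
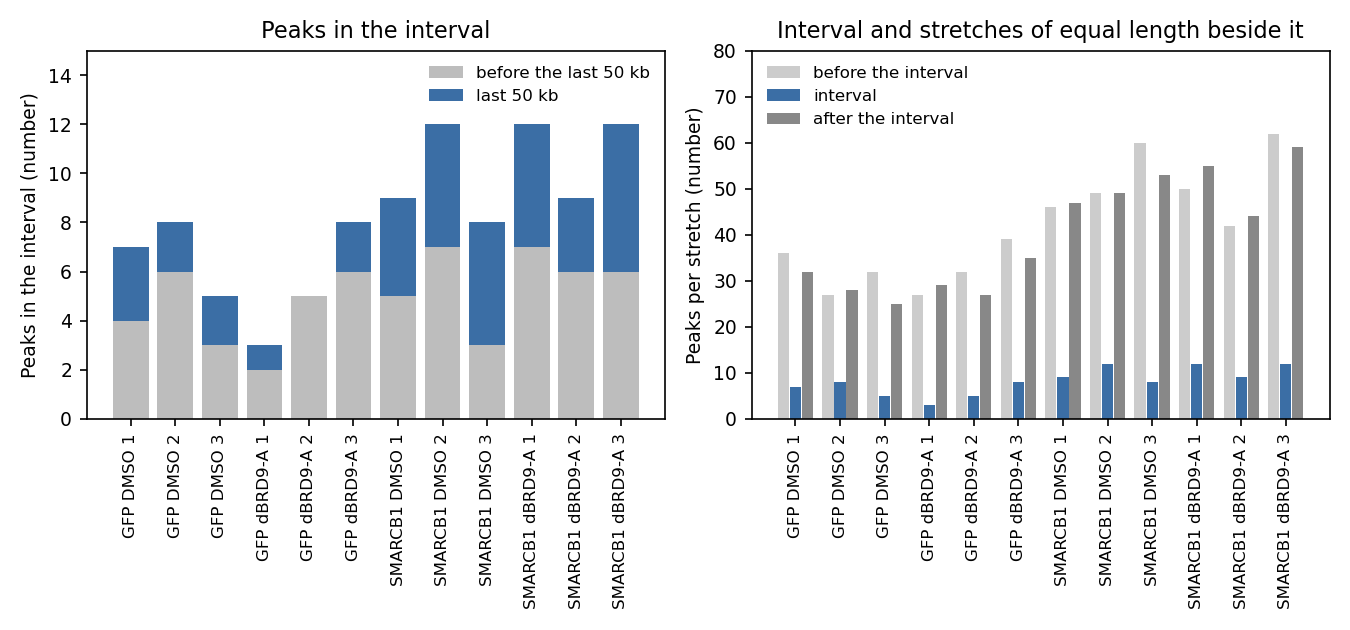
Number of peaks (vertical axes) in each of the 12 libraries. On the left, stacked bars split the peaks of the interval into those of its last 50 kb and those before; on the right, grouped bars set the interval beside the windows of equal length before and after it. The last 50 kb held 0 to 3 peaks in GFP and 3 to 6 in SMARCB1 libraries, and the interval's bar is the lowest of its 3 in every library.

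The region shared by all libraries lay near the start of the occupied stretch. This region, chr5:140700191-140700553, is 363 bp wide and is called the 545.2 kb region after its distance from the interval's start, as are the others below. Its folds were 10.7, 9.35 and 7.44 in GFP DMSO libraries and 5.28, 8.18 and 9.74 in GFP dBRD9-A libraries. They were 9.24, 8.04 and 7.88 in SMARCB1 DMSO libraries and 12.2, 7.77 and 6.95 in SMARCB1 dBRD9-A libraries. The inductions overlapped over most of their range, and summits held 5 to 15 fragments. With presence counted only at 50% cover, 5 GFP and 3 SMARCB1 libraries had the peak. A neighbour 256 bp before it, the 544.8 kb region (chr5:140699826-140699934), had a peak in 5 GFP and 5 SMARCB1 libraries, with folds from 4.93 to 8.47 (exact permutation p 1). With lists of equal length, that neighbour had a peak in 5 GFP and 1 SMARCB1 library (exact permutation p 0.095, adjusted p 0.242). The 544.8 kb region, and those at 637.5, 642.1, 664.1, 696.0, 732.3, 738.7 and 739.4 kb below, were picked after their values were seen.

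Between 550 and 650 kb peaks occurred with either induction. The 642.1 kb region (chr5:140797125-140797327) had a peak in 6 GFP and 4 SMARCB1 libraries. Its folds were 10.6, 3.75 and 4.69 in GFP DMSO libraries and 3.82, 7.33 and 8.10 in GFP dBRD9-A libraries. They were 6.46 and 4.65 in SMARCB1 DMSO libraries 1 and 2 and 3.61 in SMARCB1 dBRD9-A libraries 1 and 2, with no peak in library 3 of either group. The folds overlapped, and the difference in presence had an exact permutation p of 0.5, or 0.619 after Benjamini-Hochberg adjustment over all 88398 regions tested. This depended on the lists: thinned to equal depth, or cut to equal length, 6 GFP and 1 SMARCB1 library had the peak, with an exact permutation p of 0.02 in each and adjusted p of 0.0996 and 0.0853. The 637.5 kb region (chr5:140792468-140792563) had a peak in 1 GFP DMSO, 1 GFP dBRD9-A, 1 SMARCB1 DMSO and 3 SMARCB1 dBRD9-A libraries, with summits of 3 to 7 fragments (exact permutation p 0.56 for induction and 0.56 for treatment). Of the other 6 regions in this stretch, those at 555.0 and 574.5 kb had a peak in 3 libraries each, that at 645.5 kb in 2 SMARCB1 dBRD9-A libraries, and the remaining 3 in 1 library each.

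From 650 to 700 kb all peaks were in SMARCB1 libraries, 10 in number, with summits of 2 to 5 fragments. The 664.1 kb region (chr5:140819106-140819224) had a peak in 2 SMARCB1 DMSO libraries and 1 SMARCB1 dBRD9-A library, each with a summit of 3 fragments (exact permutation p 0.2, adjusted p 0.372), and in 1 SMARCB1 library after thinning to equal depth. The 696.0 kb region (chr5:140851012-140851186) had a peak in 2 libraries of each SMARCB1 group, with folds of 2.80 and 5.49 in DMSO and 4.56 and 5.40 in dBRD9-A (exact permutation p 0.08, adjusted p 0.210). In lists thinned to equal depth this region had a peak in 1 SMARCB1 library. The other 3 regions had a peak in 1 SMARCB1 library each.

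Toward the end of the interval, a pair of regions had peaks in 5 of 6 SMARCB1 libraries and in no GFP library. The 713.4 kb region (chr5:140868377-140868852) had folds of 6.40 and 4.34 in SMARCB1 DMSO libraries 1 and 2, no peak in library 3, and folds of 5.84, 4.61 and 6.70 in SMARCB1 dBRD9-A libraries. Its summits held 4 to 7 fragments and were spread over 298 bp. The 720.7 kb region (chr5:140875706-140875955), 6.853 kb further on, was stronger and narrower. Its folds were 7.17, 7.38 and 9.01 in SMARCB1 DMSO libraries and 11.8 and 11.9 in SMARCB1 dBRD9-A libraries 1 and 3, with no peak in library 2, the shallowest SMARCB1 library. Its summits held 7 to 13 fragments and lay within 27 bp of each other. Each region had an exact permutation p of 0.02 for induction and an adjusted p of 0.0757, so neither passed 0.05. After thinning to equal depth each had a peak in 4 SMARCB1 libraries, with an exact permutation p of 0.08. The 713.4 kb region had one in 3 SMARCB1 libraries by 50% cover or with −log10 q of at least 5 (exact permutation p 0.2 in each), and in none with lists of equal length. The 720.7 kb region kept a peak in 5 SMARCB1 and no GFP library at each of these settings (exact permutation p 0.02 in each). Its adjusted p was 0.115 by 50% cover, 0.0778 with −log10 q of at least 5 and 0.0853 with equal length.

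At 737.0 kb the direction was the opposite. The region chr5:140892006-140892247 had a peak in 5 of 6 GFP and no SMARCB1 library. Its folds were 6.39, 6.76 and 8.69 in GFP DMSO libraries and 5.26 and 9.07 in GFP dBRD9-A libraries 1 and 3, with no peak in library 2, the shallowest of all. Summits held 6 to 14 fragments over a local background of 0.330 to 1.35. Absence from the SMARCB1 lists, which were longer and on average deeper, had an exact permutation p of 0.02 and an adjusted p of 0.0757. The numbers were 5 GFP and 0 SMARCB1 libraries at equal depth and with lists of equal length, 4 and 0 with −log10 q of at least 5 (exact permutation p 0.05) and 2 and 0 by 50% cover (exact permutation p 0.4). A neighbouring region at 737.9 kb had a peak in GFP DMSO library 1 alone, with a fold of 5.59.

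The strongest peaks of the interval followed 1.419 kb later, in the 738.7 kb region (chr5:140893667-140894254), and were in SMARCB1 libraries. Its folds were 9.72, 7.98 and 5.83 in GFP DMSO libraries and 4.89 in GFP dBRD9-A library 3, with no peak in GFP dBRD9-A libraries 1 and 2. They were 20.7, 18.1 and 21.0 in SMARCB1 DMSO libraries and 23.7, 11.7 and 17.3 in SMARCB1 dBRD9-A libraries. Every SMARCB1 fold lay above every GFP fold, and summits held 16 to 41 fragments in SMARCB1 and 7 to 21 in GFP libraries. Within its own list the peak ranked at percentiles of fold from 86.9 to 98.2 in SMARCB1 and from 26.4 to 59.9 in GFP libraries. Such a separation was met in 4.5% of the 21871 regions of the series with a peak in 6 SMARCB1 and at least 4 GFP libraries, and in 1 of the 2 such regions of the interval. The reverse separation was met in 0.736% in the series and in 0 of the 2. The other was the 545.2 kb region. This filter asked for all 6 SMARCB1 but only at least 4 GFP libraries, which the 738.7 kb region itself just meets. Regions with strong GFP peaks but missing from a SMARCB1 list could not enter, so the 2 shares are not a balanced comparison. GFP libraries without a peak did not enter the comparison of folds. No test was made on folds, which depend on the depth of each list, and presence alone gave an exact permutation p of 0.4 (adjusted p 0.619). By 50% cover or summit windows 2 GFP libraries had the peak, beside 6 SMARCB1 libraries.

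**Figure D3:**
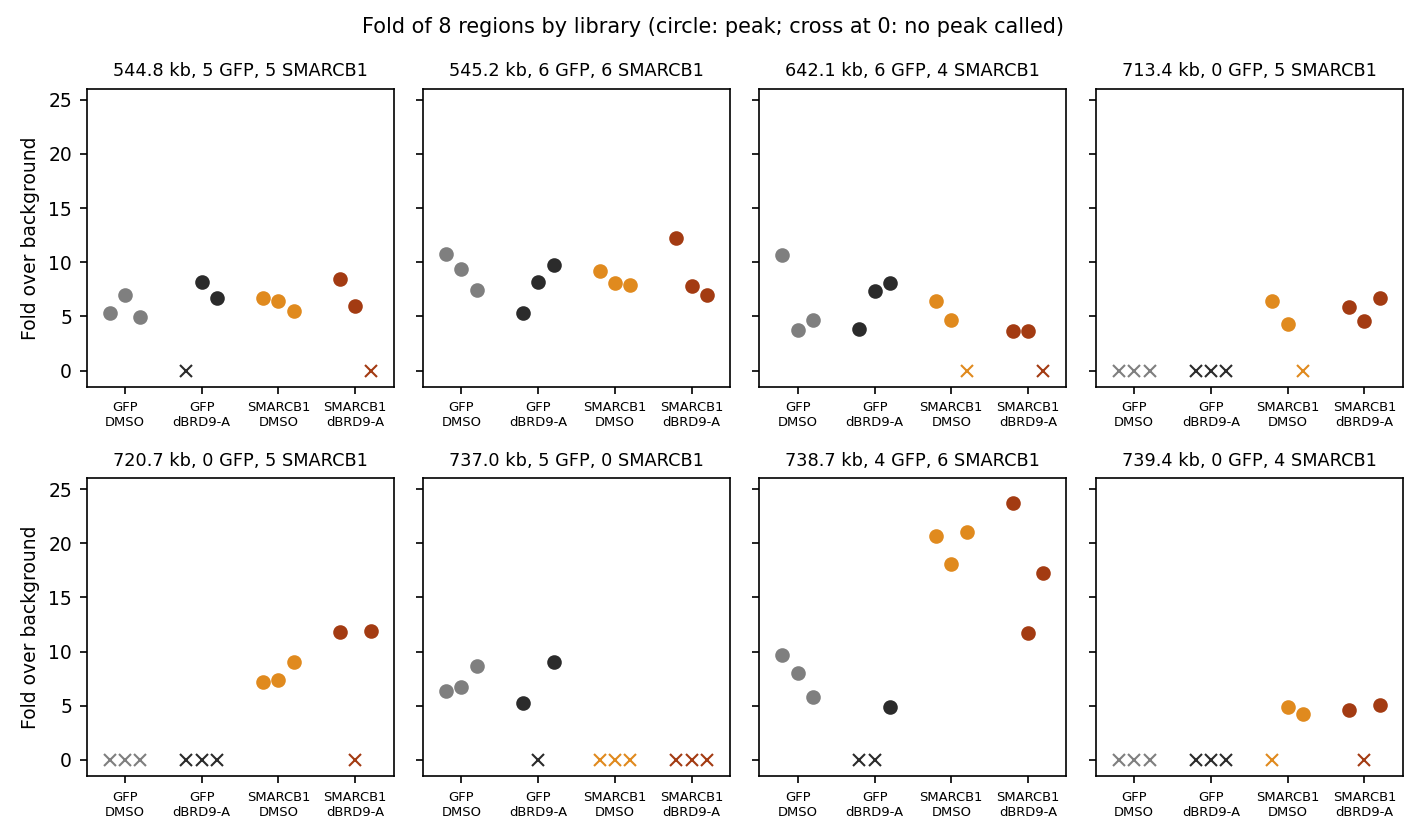
The authors' fold over background (vertical axis) by library in 8 of the regions described, each panel headed by its distance in kb from the interval's start and the number of GFP and SMARCB1 libraries with a peak. Circles are libraries with a peak and crosses at 0 libraries without one, coloured by group. Only at 738.7 kb, among regions with peaks in both inductions, do all SMARCB1 points (11.7 to 23.7) lie above all GFP points (4.89 to 9.72).

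The 739.4 kb region (chr5:140894435-140894628) had a peak in 2 libraries of each SMARCB1 group, with folds of 4.86 and 4.21 in DMSO and 4.56 and 5.03 in dBRD9-A (exact permutation p 0.08, adjusted p 0.210), and in 1 SMARCB1 library after thinning to equal depth. The 732.3 kb region (chr5:140887306-140887537) had folds of 4.38 and 5.59 in SMARCB1 DMSO libraries 1 and 2 and 4.26 in SMARCB1 dBRD9-A library 1. Those at 733.7 and 745.8 kb each had a peak in library 3 of both SMARCB1 groups, the deepest library of each, and that at 732.2 kb in 1 SMARCB1 library. For the 733.7 and 745.8 kb regions, depth and the shared replicate number cannot be told apart. All 4 regions with peaks in 2 or more libraries here were found with SMARCB1 only, and all had summits of 4 to 8 fragments.

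Read over the 16 regions tested, none was called for induction. After adjustment 0 of 16 were gained and 0 lost by the stratified exact permutation test, where the series had 15.4% gained and 0.131% lost. At an unadjusted p under 0.05, 2 were gained (12.5%, against 25.9% in the series) and 1 lost (6.25%, against 0.482%). These were the regions at 713.4, 720.7 and 737.0 kb. The balance of directions depended on the lists: unadjusted, 0 were gained and 2 lost of 11 tested at equal depth, and 1 gained and 2 lost of 7 with lists of equal length. Calls changed over the whole series as well. After adjustment, 13750 of 88398 regions were called for induction in the lists as given. At equal depth 0 of 68992 were called, and with equal length 4642 of 40575. The lowest adjusted p of the series in this test was 0.0321 in the lists as given, 0.0501 at equal depth and 0.0437 with equal length. Regions at the smallest exact permutation p, 0.005, share the same adjusted p, so they passed or missed 0.05 together. Unadjusted shares of the series were not computed at these settings. Of the 16, 11 had peaks in more SMARCB1 than GFP libraries, 4 in fewer and 1 in equal numbers, with a median difference of 2 libraries. Over all regions tested 80.6% had more SMARCB1 libraries, with a median of 3. Without SMARCB1 DMSO replicate 3 the 713.4 kb region was called (adjusted p 0.0268). The 720.7 kb region was called without SMARCB1 dBRD9-A replicate 2 (0.0253), and the 737.0 kb region without GFP dBRD9-A replicate 2 (0.0311). In each case the library left out was the only one of its induction without a peak. Leaving it out gave a full split by construction, so these calls say nothing on the stability of the regions.

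Within each treatment, regions were counted as gained or lost when a peak was found in 3 of 3 libraries with one induction and 0 of 3 with the other. In DMSO 1 of 19 regions with a peak was gained, at 720.7 kb, against 15% in the series, and 1 was lost, at 737.0 kb, against 0.429%. In dBRD9-A 1 of 23 was gained, at 713.4 kb, against 13.5%, and 0 were lost, against 0.385%. A comparison of 3 with 3 libraries cannot give an exact permutation p below 0.1. With a library left out, the rule asked only for the libraries that remained, which is looser, and series shares were not computed for it. In DMSO 3 regions were gained this way without SMARCB1 DMSO replicate 1 and 4 without replicate 3. In dBRD9-A 3 were gained when GFP dBRD9-A replicate 3 was left out, 2 without SMARCB1 dBRD9-A replicate 1 and 4 without its replicate 2, and 1 was lost without GFP dBRD9-A replicate 2. Whether the effect of SMARCB1 differed between the treatments at these regions was not tested.

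The comparison of dBRD9-A with DMSO concerned BRD9 loss, and no region of the interval was called for it. DMSO and dBRD9-A libraries had means of 8.17 ± 2.32 and 8.17 ± 3.66 peaks (SD, n = 6 each), a difference of 0. By induction the means were 6.67 ± 1.53 and 5.33 ± 2.52 after GFP induction and 9.67 ± 2.08 and 11 ± 1.73 after SMARCB1 induction (SD, n = 3 each), differences within the spread between libraries. Of the 16 regions tested, 4 had peaks in more dBRD9-A libraries, 7 in more DMSO libraries and 5 in equal numbers. The stratified exact permutation test gave 0 regions gained and 0 lost in the interval and 0% in the series (lowest adjusted p 1). Unadjusted, 0 in the interval had a p under 0.05, against 0.0475% gained and 0.017% lost in the series. By 3 of 3 against 0 of 3, 0 of 12 regions changed in GFP cells, against 0.359% gained and 0.32% lost, and 0 of 21 in SMARCB1 cells, against 0.301% and 0.269%. Under the looser rule that asks only for the remaining libraries, leaving out GFP dBRD9-A replicate 3 made 1 lost in GFP cells. Leaving out SMARCB1 DMSO replicate 2 or SMARCB1 dBRD9-A replicate 1 made 1 gained in SMARCB1 cells. The 738.7 kb region, in 3 GFP DMSO libraries and 1 GFP dBRD9-A library, had an exact permutation p of 0.4 for treatment, and its SMARCB1 folds overlapped between the treatments.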

How the data were processed

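The data were 12 narrowPeak lists, 1 per library, called on nucleosome-free fragments. The submitters' processing notes name BWA 0.7.12-r1039, SAMtools 1.2, bedtools 2.24.0, MACS2 2.1.1.20160309, DiffBind and DESeq2, and the build hg19 (GRCh37); their settings, filters and the handling of reads that match several places are not given in the sources used here. Chromosome 1 peaks reached position 249240575.

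The authors' deposited columns hold an integer score, the fold over background (a ratio), and −log10 p and −log10 q values, each as the peak caller wrote it, and a summit position. The score was not used.

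From these, with Python 3.11.15, numpy 2.4.6, pandas 2.3.3, scipy 1.17.1 and matplotlib 3.10.9, peaks were merged over the genome where they overlapped by at least 1 bp. Presence of a library in a region meant at least 1 peak. Each region in 2 to 10 libraries was tested by a two-sided exact permutation of its presence within the levels of the other factor (400 arrangements, smallest p 0.005), with Benjamini-Hochberg adjustment over 88398 regions and a threshold of 0.05. Whole summit pileups and local backgrounds were solved from fold and −log10 p, within a tolerance of 0.001 for 99.995% of peaks, and depth was the commonest background of a list. The test was tried on simulated data. Coordinates are 1-based.

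The members and lists were chosen with earlier results of these data known. Regions named by rule were those in all 12 libraries, those called for induction, and those in 3 of 3 against 0 of 3 libraries. Alternatives were a minimum −log10 q of 5, lists cut to an equal 33428 peaks, lists thinned to equal depth with −log10 p of at least 4.02, 50% cover, windows of 100 bp to each side of summits, a minimum of 2 of 3 against 0 of 3 libraries, Fisher's exact test, a replicate block, and each library left out. Thinning was a single random draw and was not repeated. No GRCh37 genome or annotation was used here.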

Additional observations from a re-analysis of the deposited data

How the results depend on the processing

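Of 172 recomputed counts, 25 moved, more often among those reported above 0. Most of the 147 that stayed were 0 throughout. Of 453 differences in libraries at single regions, 419 kept their sign or stayed at 0, 6 went to 0, 27 left 0 and 1 turned. The 27 were at the 544.8 and 545.2 kb regions. Most came from leaving out a library with a peak, which moves an equal count off 0 by arithmetic. The rest came with changed settings, such as equal length at 544.8 kb and 50% cover at 545.2 kb. Only 3 of the 453 passed the threshold, each when the only library of its induction without a peak was left out. The turned one was at 637.5 kb: with lists of equal length it had 1 GFP library more than SMARCB1 libraries (−1, from 2). For SMARCB1 against GFP in DMSO, 1 region was gained as reported, 6 by at least 2 of 3 libraries and 0 with lists thinned to equal depth. Of regions lost there, 1 as reported, there were 2 with lists of equal length, 2 with thinned lists and 0 with 50% cover. In dBRD9-A the number gained went from 1 to 5 by at least 2 of 3 and to 2 with summit windows, and the number lost from 0 to 1 by at least 2 of 3 and to 1 with equal length. For dBRD9-A against DMSO, the number lost in GFP cells went from 0 to 1 with −log10 q of at least 5, with equal length and with thinning, and the number gained in SMARCB1 cells from 0 to 1 by at least 2 of 3. The difference in peaks per library, 4.33, was 1.33 with −log10 q of at least 5, −2 with equal length and 0.667 with thinning. The cause of these moves was not tested.

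By unadjusted p, SMARCB1 against GFP gave 1 gained and 0 lost both by 50% cover and with −log10 q of at least 5. Over the series, adjusted calls for induction were 0 of 89133 regions by 50% cover and 8135 of 53722 with −log10 q of at least 5. The lowest adjusted p of the stratified exact permutation test was 0.0577 and 0.0330 in the series at these settings. With each library left out in turn, the rule of all against none asked only for the remaining libraries and was looser. By it, the regions gained with SMARCB1 ranged from 1 to 4 in DMSO and from 1 to 4 in dBRD9-A, and those lost from 1 to 1 and from 0 to 1. The stratified test gave 0 to 1 gained and 0 to 1 lost. For dBRD9-A, 0 to 1 were lost in GFP cells and 0 to 1 gained in SMARCB1 cells. The difference in peaks ranged from 3.73 to 4.80 for induction and from −0.77 to 1.03 for treatment.

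With the replicate number as a block, 0 regions of the interval were called in either direction and 0 had an unadjusted p under 0.05 (2 gained and 1 lost without the block), with a lowest adjusted p of 0.237 in the interval and 0.201 in the series, since the block allows no p below 0.0313. Libraries of one number carry title codes close to each other, and whether a number marks a batch is not given in the sources used here. The check left the pairing unsettled: deviations of libraries with the same number had correlations from −0.0691 to 0.255 over 18 pairs, 2 of them above 0.1, against −0.199 to 0.0935 over 36 pairs of different number, and 8 of 12 libraries correlated best with one of their own number. The same-number pairs of SMARCB1 libraries had 0.0541, 0.162 and 0.255. Fisher's exact test called 0 regions, with a lowest adjusted p of 0.0574. In 6 of the 9 regions found in 1 library the summit was 2 fragments, so presence or absence of such weak peaks was not resolved at this depth.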

Other observations

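Fold ranks within the lists placed the interval's peaks below the middle: the median percentile was 42.2 over the 36 peaks of GFP libraries and 41.3 over the 62 of SMARCB1 libraries. Of the 98 peaks, 56 in 15 regions had a −log10 q of at least 5, and 9 peaks in 3 regions ranked above the 80th percentile.

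The summit positions of the 738.7 kb region differed in spread. The 4 GFP summits lay between 140893806 and 140894134, a spread of 328 bp, and the 6 SMARCB1 summits between 140894065 and 140894138, a spread of 73 bp. The numbers of libraries differ, and this difference was noticed in the data and not tested.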
